A study of Mus musculus with 14 samples.

Results

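The constitutive proteasome genes were followed across mouse gastric tumours grown at 2 sites. All rows of the expression table whose symbol is Psma, Psmb, Psmc or Psmd followed by a number were taken, apart from the inducible Psmb8, Psmb9 and Psmb10. This gave 36 genes of the 24421 rows. The rule itself reads names only. The tumours were sampled 2 months after transplantation, when about 1 cm3 of tissue was taken from each for polyA RNA sequencing. There were 3 libraries in each of 4 groups: subcutaneous tumours named TM, TMP and TMPC, and orthotopic TMPC tumours, which grew at the organ of origin. The labels write the tumour lines only as TM, TMP and TMPC, and these names are kept here without a meaning for the letters. The labels do not state the strain, sex or age of the host mice, nor whether replicates are separate animals. The p-values below therefore reflect library-to-library spread, part of which may be technical.

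The 26S proteasome is the protease that degrades ubiquitin-tagged proteins. Its 20S core is a barrel of stacked rings: the outer alpha rings gate the entrance, and the inner beta rings carry the active sites. The 19S regulatory particle caps the barrel; its base holds a ring of ATPases that unfold and thread the substrate, and its lid removes the ubiquitin chain. In immune settings and under interferon the 3 catalytic beta subunits can be replaced by the inducible Psmb8, Psmb9 and Psmb10, which form the immunoproteasome. Transcription of the subunit genes is known to rise together when the factor Nrf1, the product of Nfe2l1, is activated, and dividing cells depend on the proteasome to destroy cyclins.

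By role, 7 of the genes encode alpha ring subunits (Psma1 to Psma7), 3 the catalytic beta subunits Psmb5, Psmb6 and Psmb7, and 4 the beta subunits that have no active site (Psmb1 to Psmb4). A further 6 encode the ATPases of the 19S base (Psmc1 to Psmc6), 3 the other base subunits (Psmd1, Psmd2, Psmd4) and 8 the lid (Psmd3, Psmd6, Psmd7, Psmd8, Psmd11, Psmd12, Psmd13, Psmd14). The name rule also takes in genes that the term subunit describes less well. Psmd5, Psmd9 and Psmd10 encode chaperones that assemble the 19S base and leave the finished particle. Psma8 and Psmb11 encode 20S variants of the testis and the thymus, and had at most 12 counts in any library. These last 2 genes did not pass the filter on low counts, so 34 of the 36 genes were tested.

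The promoters of these genes were read first, because a shared site would be something the name rule did not use. RefSeq windows from 250 bases before to 50 bases after the transcript start were found for 29 of the 36 genes (31 windows, build GRCm38.p6). In all, 4 motifs were searched on both strands. The letters CCGGAAG, the core bound by ETS factors, occurred in 35.5% of the members' windows against 8.86% of all 32851 windows. The antioxidant response element core TGACNNNGC, to which Nrf1 and Nrf2 bind, occurred in 16.1% against 12.4%, CCAAT in 38.7% against 37.4%, and the E-box CACGTG in 6.45% against 7.15%. The ETS letters stood in 10 genes, 9 of the 17 genes of the 19S particle with a window and 1 of the 11 of the 20S core, Psma6. In Psma6 they lay only in the window of a second start inside the gene, and not in the window at the gene's start. A match describes letters and not a bound site.

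The stretches shown are upstream of the start, 3 with the ETS letters from genes of the base and lid (Psmd2, Psmd4, Psmd11) and 2 with the response element core, from the catalytic subunits Psmb5 and Psmb6. They are given 5′ to 3′ on the gene's strand, from 130 bases before the RefSeq start and ending at that start, or, for Psmb5, where the GENCODE gene begins. Capitals mark the motif, which in Psmd2 and Psmd11 lies on the opposite strand.
Psmd2 (chr16:20651522-20651651, plus strand): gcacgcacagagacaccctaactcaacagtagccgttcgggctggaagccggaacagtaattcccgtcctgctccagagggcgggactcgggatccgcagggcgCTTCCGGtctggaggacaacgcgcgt
Psmd4 (chr3:95042615-95042744, minus strand): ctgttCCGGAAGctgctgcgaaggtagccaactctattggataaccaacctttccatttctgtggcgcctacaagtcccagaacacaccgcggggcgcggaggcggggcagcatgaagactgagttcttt
Psmd11 (chr11:80428485-80428614, plus strand): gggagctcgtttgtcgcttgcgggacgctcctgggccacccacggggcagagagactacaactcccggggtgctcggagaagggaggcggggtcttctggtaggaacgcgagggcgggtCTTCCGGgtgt
Psmb5 (chr14:54618023-54618125, minus strand): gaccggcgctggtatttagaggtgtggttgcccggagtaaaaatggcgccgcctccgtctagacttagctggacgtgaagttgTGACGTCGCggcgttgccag
Psmb6 (chr11:70525227-70525356, plus strand): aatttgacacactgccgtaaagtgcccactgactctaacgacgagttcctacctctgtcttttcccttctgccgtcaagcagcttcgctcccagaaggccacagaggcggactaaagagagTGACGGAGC

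**Figure D1:**
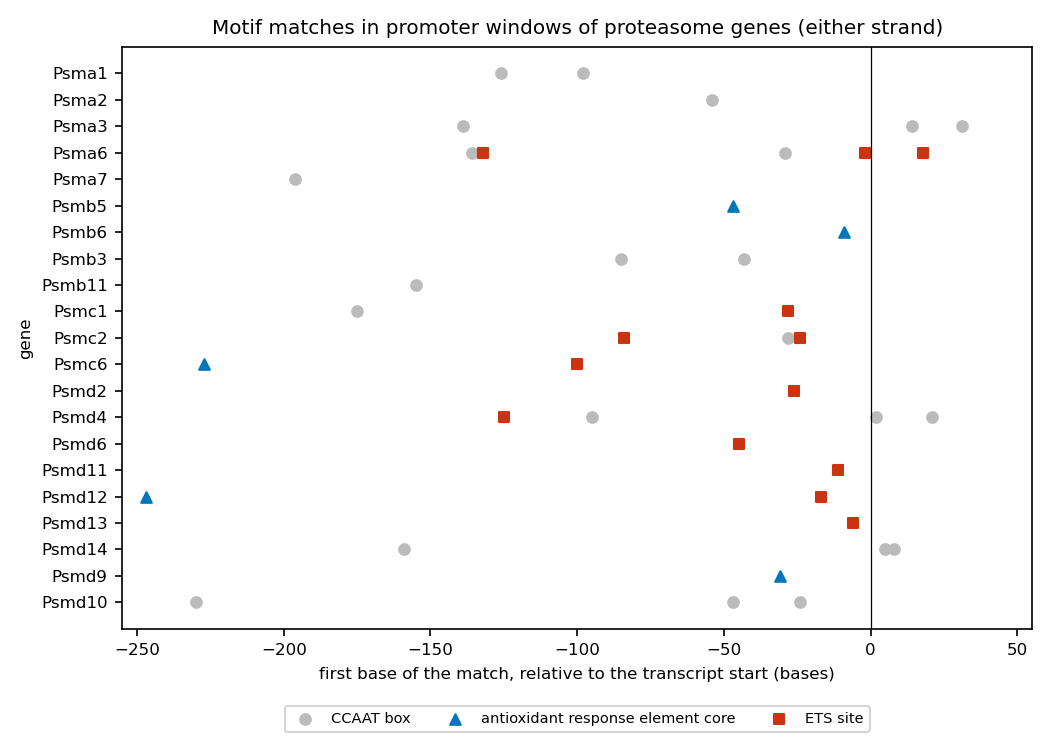
First base of each match to the ETS letters (squares), the response element core (triangles) and CCAAT (circles), in bases from the transcript start, for each gene with a match in its promoter window. The ETS letters stand in 9 genes of the 19S particle and 1 of the 20S core, Psma6, where they lie at a second start inside the gene.

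The 12 libraries held 16584781 to 21107310 counts. Levels are given below as CPM (counts of a gene per 1000000 counts of its library) scaled with TMM factors over all 12 libraries, and a log2 fold change is the difference between groups on the log2 scale with its standard error (SE) from edgeR's quasi-likelihood fit. A gene passed the test at a Benjamini-Hochberg adjusted p under 0.05 over all genes tested. One TM library, replicate 2, stood apart: its 9 epithelial markers summed to 254 CPM, against 4453 and 4745 in the other TM libraries, and its 10 interferon response genes to 9280 CPM, against 993 and 1026. The same library held 5878 CPM of 5 adipocyte genes, against 17.8 and 20.2 in the other TM libraries. Orthotopic replicate 3 held 5585 CPM of 5 liver genes, against 54.4 and 45.5 in the other orthotopic libraries. Subcutaneous TMPC replicate 1 was also low in the epithelial markers, at 1108 CPM against 2725 and 3832 in the other subcutaneous TMPC libraries. The 9 epithelial markers were all detected in every group.

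Together the 36 genes took 0.359% to 0.422% of all counts in the TM libraries, 0.617% to 0.703% in TMP, 0.726% to 0.751% in subcutaneous TMPC and 0.466% to 0.501% in orthotopic TMPC. As summed CPM the TM tumours held 3920 ± 493 (mean ± SD, n = 3 here and in all groups), the TMP tumours 6630 ± 606, the subcutaneous TMPC tumours 7677 ± 436 and the orthotopic TMPC tumours 4719 ± 371. The groups of subcutaneous tumours did not overlap in this sum, and the orthotopic TMPC libraries lay below every TMP and subcutaneous TMPC library. By role, the TMP mean was 170.4% of the TM mean for the alpha ring, 182% for the beta ring, 159.6% for the 19S base, 171% for the lid and 139% for the assembly chaperones. In subcutaneous TMPC these shares were 209%, 210.3%, 189%, 179% and 176%. In bulk tissue, fewer cells of a type and less RNA per cell cannot be told apart.

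**Figure D2:**
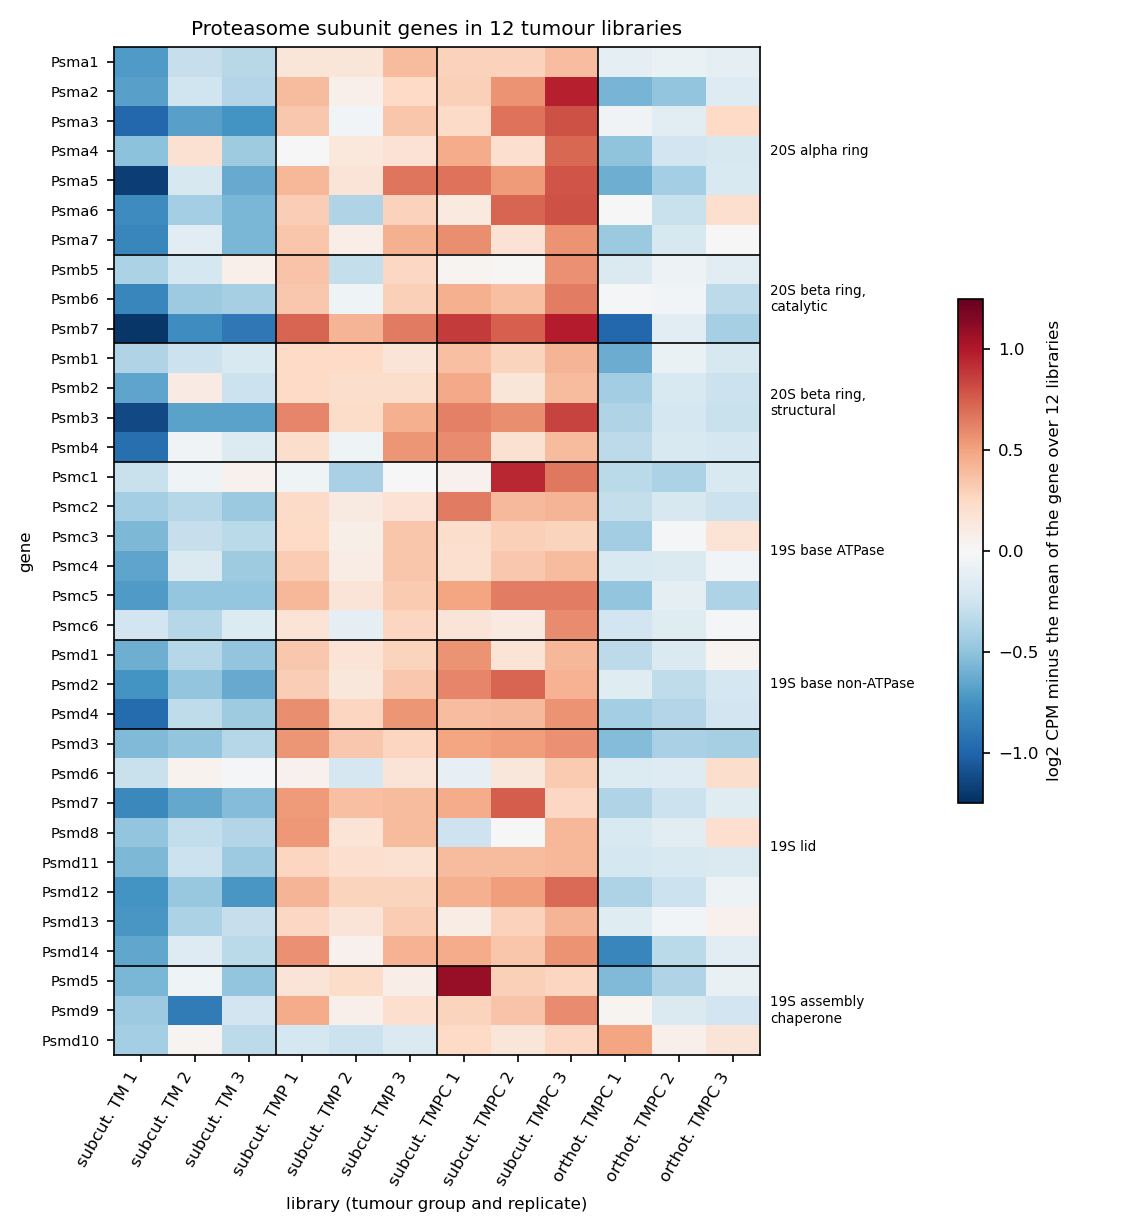
Level of the 34 tested genes in each library, as log2 CPM minus that gene's mean over the 12 libraries, with genes in rows by role and libraries in columns by group. Most rows are blue in TM and orthotopic TMPC and red in TMP and subcutaneous TMPC. Some rows, among them those of Psmc1, Psmd6 and Psmd10, do not follow this order.

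In the comparison of TMP with TM subcutaneous tumours, 23 of the 34 genes were higher and 0 were lower, where 14.3% of all genes tested were called higher. The groups did not overlap, with TMP higher, for 28 of the 34, against 27.5% of all genes. The members' median log2 fold change was 0.66, that of all genes tested -0.07. The rises spanned both particles, with 8 of 14 genes of the 20S core and 15 of 20 of the 19S particle and its chaperones. The 23 rises ran from 0.46 (Psmb1) to 1.51 on the log2 scale. The largest single change was in the catalytic subunit Psmb7, and the next in the beta subunit Psmb3.

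Psmb7 (chr2:38588036-38644087, minus strand, GRCm38) carries the trypsin-like active site and has 8 exons when all annotated transcripts are merged. Its level was 105, 143 and 131 CPM in the TM libraries, 403, 328 and 383 in TMP, 448, 409 and 481 in subcutaneous TMPC, and 124, 222 and 183 in orthotopic TMPC. Every TMP library stood above every TM library by a wide gap. The log2 fold change of TMP over TM was 1.51 ± 0.18 (SE, edgeR adjusted p = 0.00221), a 2.85-fold rise. Among the 34 genes ordered by level per kilobase of transcript, Psmb7 held rank 8 in TM and rank 3 in TMP. Exons of Psmb7 overlap those of Nek6 on the other strand by 405 bases in GENCODE. Nek6 had means of 67.6 CPM in TM and 95.6 CPM in TMP, with a log2 fold change of 0.46 (adjusted p = 0.0783). Its own difference was thus smaller than that of Psmb7. Exons on the other strand also overlap Psmd9 (1849 bases), Psmd13 (342), Psmc3 (215), Psma4 (114), Psma5 (60), Psmd3 (17) and Psmd1. No source used here names the strand setting of the counts, so the counts of these members are less certain.

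The other catalytic subunits changed less. Psmb6 (chr11:70525367-70527858, plus strand), which carries the caspase-like site, stood at 86, 111 and 113 CPM in TM and at 191, 146 and 186 in TMP. All TMP libraries were above all TM libraries, with a log2 fold change of 0.71 ± 0.18 (adjusted p = 0.0229). This call was lost without TMP replicate 1 or 3. Psmb5 (chr14:54614119-54618022, minus strand), which carries the chymotrypsin-like site and has the thymus variant Psmb11 3410 bases away, stood at 33, 37.2 and 45.3 CPM in TM and at 55.8, 35.3 and 52 in TMP. These groups overlapped, and its log2 fold change of 0.27 ± 0.24 did not pass (adjusted p = 0.431). Psmb5 was also the lowest of the 3 per length in every group, with 42.8 ± 7.0 CPM per kilobase in TM against 129.5 ± 18.9 for Psmb6 and 109 ± 16.5 for Psmb7. A processed pseudogene, Gm3375, matches Psmb5 at 98.9% over 796 bases, which makes the count of Psmb5 less certain.

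Of the remaining beta subunits, Psmb3 and Psmb1 rose and Psmb2 and Psmb4 did not pass. Psmb3 stood at 84.7, 116 and 116 CPM in TM and at 282, 217 and 252 in TMP, with no overlap. Its log2 fold change was 1.20 ± 0.19 (adjusted p = 0.0052). In the alpha ring 4 of 7 genes rose. Psma5 stood at 72.4, 143 and 106 CPM in TM and at 218, 183 and 261 in TMP, and Psma3 at 149.5, 185 and 176 against 373, 289 and 376. Their log2 fold changes were 0.99 ± 0.27 (adjusted p = 0.0313) and 0.98 ± 0.20 (adjusted p = 0.013). The call on Psma3 held in every setting tried, whereas that on Psma5 was lost in 5 of them. Psma5 had the wider spread in TM, where replicate 1 was lowest. Psma7, the gene with the highest level per length in all 4 groups, went from 209 CPM per kilobase in TM to 359 in TMP. Psma4, an alpha ring gene singled out after its values were seen, stood at 96.7, 157 and 101 CPM in TM. In TMP it stood at 138, 150.4 and 156, so TM replicate 2 lay just above all TMP libraries. The other TM libraries lay below them. Near-identical processed pseudogenes exist for Psma3, Psma5 and Psmb3 (Gm13835 matches Psma3 at 100% over 685 bases), which makes their counts less certain. The same holds for Psma2, Psma4, Psmc1, Psmd2 and Psmd11, for each of which a copy was found.

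In the 19S base, 4 of 6 ATPase genes and all 3 of the other base genes rose. Psmc5 was the ATPase gene that rose most, by a log2 fold change of 0.82 ± 0.14 (adjusted p = 0.00715). Psmd4 encodes a ubiquitin receptor, and Psmd2 a large scaffold subunit. Psmd4 stood at 68, 106 and 97.3 CPM in TM and at 199, 159.9 and 194 in TMP, a log2 fold change of 0.98 ± 0.20 (adjusted p = 0.0132). Psmd2 stood at 231, 275 and 252 against 482, 428 and 491, a log2 fold change of 0.84 ± 0.16 (adjusted p = 0.00896). Both genes were higher in every TMP library. Psmc1 differed from the other ATPase genes, with 119.6, 139.9 and 150.1 CPM in TM and 139.7, 109.5 and 145 in TMP, and a log2 fold change of -0.10 ± 0.24.

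In the lid 7 of 8 genes rose. Psmd7, the inactive partner of the deubiquitinase, stood at 99.5, 112 and 119.7 CPM in TM and at 251, 226 and 229 in TMP. Psmd14, the deubiquitinase that cuts the chain from the substrate, stood at 81.8, 115 and 101 against 192, 133 and 174. Neither gene's groups overlapped, and the log2 fold changes were 1.05 ± 0.17 (adjusted p = 0.00539) and 0.69 ± 0.20 (adjusted p = 0.0343). The call on Psmd7 held in every setting tried, whereas that on Psmd14 was lost in 6 of them, among them the fit of these 6 libraries alone and those without TM replicate 1 or 3 or TMP replicate 1 or 3. Psmd6, singled out after its values were seen, was the lid gene that did not pass. It stood at 76.4, 95.3 and 91.2 CPM in TM and at 96.2, 80.2 and 104 in TMP, with overlapping groups and a log2 fold change of 0.05 ± 0.18. Of the 3 assembly chaperones Psmd9 rose, by 0.72 ± 0.19 (adjusted p = 0.0287). Its exons overlap those of Gm26745 on the other strand by 1849 bases, which makes its count less certain. Psmd5 did not pass, and Psmd10, also called gankyrin, was at 20.6, 28.4 and 22.1 CPM against 23.7, 23 and 24.5.

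Set against the promoter windows, 6 of the 10 tested genes with the ETS letters rose in TMP (Psmc2, Psmd2, Psmd4, Psmd11, Psmd12, Psmd13), and 12 of the 18 with a window but without the letters. Psma6, Psmc1, Psmc6 and Psmd6 hold the letters and did not pass. For the response element core, 3 of the 5 genes with it rose (Psmb6, Psmd9, Psmd12; not Psmb5 and Psmc6), and 15 of the 23 without it.

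Leaving out TMP replicate 3 lowered the count of members called higher in TMP from 23 to 10, and leaving out TMP replicate 1 lowered it to 12. A fit of these 6 libraries alone gave 15, and without TM replicate 2 the count was 26. The 8 genes of dividing cells (Mki67, Top2a and others) moved with the members: 8 of 8 were higher in TMP, with summed levels of 360 to 513 CPM in TM and 1551 to 1861 in TMP. Genes of the interferon response and of leukocytes moved the other way. Of the 10 interferon response genes 9 were lower in TMP (sums of 993 to 9280 CPM in TM, 203 to 356 in TMP), as were 4 of 7 tested leukocyte markers (639 to 2486 CPM against 123 to 247), 2 of 3 plasma cell markers (577 to 2923 against 498 to 515) and 1 of 7 fibroblast markers. The plasma cell sums were mostly Sdc1 and Xbp1, except in TM replicate 2, where Jchain had 31423 counts. Of the epithelial markers 0 of 9 passed, with sums of 254 (replicate 2) to 4745 CPM in TM and 2954 to 4474 in TMP. The spread within TM limits what that test could show. Whether any of these gene sets had a part in the members' differences was not tested.

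**Figure D3:**
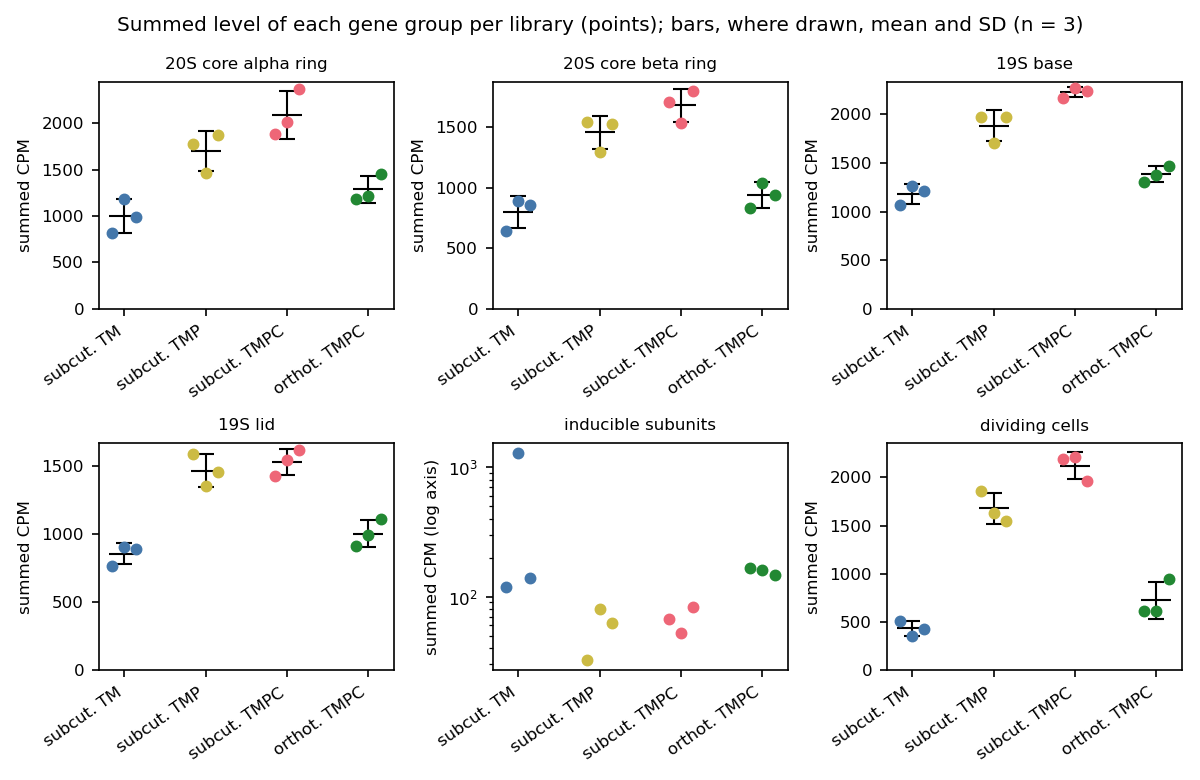
Summed CPM per library of 4 groups of proteasome genes, of the 3 inducible subunits (log axis, points only) and of 8 dividing-cell genes, with the mean and SD of 3 libraries as bars. The 4 proteasome groups and the dividing-cell genes are high in TMP and subcutaneous TMPC, and the inducible subunits are low there.

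Between subcutaneous TMPC and TMP, 0 of the 34 members and 0 of 15277 genes passed edgeR's test, while 465 genes and 2 members had an unadjusted p under 0.05. DESeq2 called 16 genes and 0 members. The members' median log2 fold change was 0.14, that of all genes 0.01, and 32 of the 34 values were above 0. For 12 of the 34 members every TMPC library lay above every TMP library, against 7.15% of all genes, and for 0 members the reverse held, against 5.67%. The 12 were Psma4, Psmb1, Psmb6, Psmb7, Psmc1, Psmc2, Psmc5, Psmd2, Psmd5, Psmd10, Psmd11 and Psmd12.

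The largest value belonged to Psmc1, an ATPase gene with 150.0, 278 and 228 CPM in subcutaneous TMPC. Its log2 fold change of TMPC over TMP was 0.72 ± 0.24. The pseudogene Gm9575 matches Psmc1 at 97.1% over 728 bases, which makes its count less certain. The next values were those of Psma6, 0.45 ± 0.26, and Psmd5, 0.42 ± 0.27. Psmd5 rested on TMPC replicate 1, at 91.7 CPM against 52.8 and 51.9 in the other TMPC libraries. The smallest values were those of the lid gene Psmd8, the highest lid gene per length in TM, -0.32 ± 0.20, of Psmd4, -0.04 ± 0.20, and of Psmd13, 0.00 ± 0.16.

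In the comparison of subcutaneous TMPC with TM, which shares the TM libraries with the first comparison, 26 of the 34 members were higher and 0 lower, where 18% of all genes tested were called higher. The groups did not overlap for 31 of the 34, with TMPC higher, against 26.1% of all genes. The members' median log2 fold change was 0.82, that of all genes -0.07. By role the count was 6 of 7 in the alpha ring, 4 of 7 in the beta ring, 5 of 6 among the ATPases, 3 of 3 among the other base genes, 6 of 8 in the lid and 2 of 3 among the chaperones.

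The members that rose most were Psmb7, by 1.75 ± 0.18 on the log2 scale (adjusted p = 0.000725), Psmb3, by 1.43 ± 0.19 (adjusted p = 0.0018), and Psma3, by 1.32 ± 0.21 (adjusted p = 0.00301). Psma5, Psmd2 and the lid scaffold gene Psmd12 followed with 1.20 ± 0.27, 1.15 ± 0.16 and 1.14 ± 0.15. Psmd12 stood at 78, 94.2 and 78.8 CPM in TM and at 177, 188 and 213 in subcutaneous TMPC, with a wide gap between the groups. Psmb5 again overlapped, at 44.5, 43.8 and 64.5 CPM in TMPC, with a log2 fold change of 0.34 ± 0.24 (adjusted p = 0.296). Psmd6, at 86.2, 102 and 116 CPM, overlapped as well. The count lay between 22 and 29 whichever library was left out. Dividing-cell genes were higher for 8 of 8 (1963 to 2215 CPM in TMPC), and 2 of 6 skeletal muscle genes were higher (23 to 223 CPM against 2.39 to 4.35). Lower in TMPC were 9 of 10 interferon response genes, 5 of 7 leukocyte markers (119 to 186 CPM against 639 to 2486) and 2 of 3 plasma cell markers; the part of these genes was not tested.

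Among TMPC tumours, those grown orthotopically held less of the constitutive proteasome transcripts than those grown under the skin. Of the 34 members 18 were lower and 0 higher, where 13.8% of all genes tested were called lower. The groups did not overlap, with the orthotopic libraries lower, for 29 of the 34 members against 26.3% of all genes. The members' median log2 fold change was -0.59, that of all genes 0.05. The summed level was 61.5% of the subcutaneous mean for all members, 61.6% for the alpha ring, 55.8% for the beta ring, 62.3% for the 19S base and 65.7% for the lid.

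Psmb7 fell most. Its 124, 222 and 183 CPM in the orthotopic libraries all lay below the 448, 409 and 481 of the subcutaneous ones, with replicate 1 the lowest, and it fell by 1.28 ± 0.24 on the log2 scale (adjusted p = 0.0159). Nek6, on its other strand, had a log2 fold change of -0.58 (adjusted p = 0.098). In the alpha ring Psma5 and Psma2 fell most. Psma5 stood at 107, 122 and 143 CPM against 262, 237 and 282, and fell by 1.01 ± 0.17 (adjusted p = 0.0126). Psma2 stood at 117, 124 and 157 against 216, 259 and 343, and fell by 0.99 ± 0.23 (adjusted p = 0.0256).

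The lid gene Psmd3 stood at 153, 168 and 167 CPM in orthotopic and at 313, 319 and 330.4 in subcutaneous tumours, and fell by 0.93 ± 0.13 (adjusted p = 0.00996). Psmb3, at 142, 159 and 153 CPM against 285, 277 and 332, fell by 0.92 ± 0.14 (adjusted p = 0.0109). The ATPase gene Psmc5, at 106, 138 and 114 CPM against 209, 231 and 232, fell by 0.86 ± 0.16 (adjusted p = 0.0147). None of these 3 genes overlapped between sites. Psmd14 fell by 0.81 ± 0.21 (adjusted p = 0.0336) and Psmb6 by 0.56 ± 0.15 (adjusted p = 0.0355). The call on Psmb6 was lost whichever of the 6 libraries was left out, and that on Psmd14 for 5 of the 6.

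Psmb5 stood at 38.2, 41.6 and 39.6 CPM in orthotopic tumours. All 3 values lay below the subcutaneous ones, yet the log2 fold change of -0.31 ± 0.20 did not pass (adjusted p = 0.279). Psmd6, Psmd8 and Psmd10 had the values closest to 0, at -0.11 ± 0.19, -0.06 ± 0.23 and 0.08 ± 0.17, and their groups overlapped. The chaperone genes gave 0 calls of 3. The 18 falls that passed ran from -1.28 (Psmb7) to -0.55 (Psmd11).

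The count for the site comparison depended on single libraries. It was 0 without orthotopic replicate 2, 4 without orthotopic replicate 1, 9 without subcutaneous TMPC replicate 3 and 11 without subcutaneous TMPC replicate 2. Every call on a member was thus lost without orthotopic replicate 2, while the members' median lay between -0.69 and -0.55 over these fits. Without orthotopic replicate 3, the library with the most liver transcripts, the count was 19. Liver genes stood higher in all orthotopic libraries (45.5 to 5585 CPM against 0.467 to 0.979), and 3 of 4 tested were called. The dividing-cell genes were lower for 8 of 8 (616 to 948 CPM against 1963 to 2215), 8 of 10 interferon response genes were higher (662 to 998 CPM against 224 to 270.4), and 4 of 6 skeletal muscle genes were lower (3.71 to 8.64 CPM against 23 to 223). Markers of other cell types were higher in orthotopic tumours, with sums that did not overlap: 3 of 9 epithelial (4579 to 7758 CPM against 1108 to 3832), 3 of 4 plasma cell (742 to 1115 against 410.3 to 609.5), 2 of 6 leukocyte (224 to 617 against 119 to 186), 2 of 7 fibroblast (6770.2 to 18545 against 3659.8 to 5484) and 1 of 5 endothelial markers (177 to 459 against 111 to 158). Among the epithelial markers, Krt8 and Krt19 had the most counts in the orthotopic libraries, with 45930 and 54547 in replicate 1. Epcam overlapped between sites, and 1 of the 9 epithelial log2 fold changes was below 0. The plasma cell sums were mostly Sdc1 and Xbp1, and so are a poor measure of these cells. In orthotopic replicate 1 these 2 genes had 13151 and 5362 counts. Jchain had 221 there, Mzb1 28 and Tnfrsf17 0. The part of all these marker genes in the result was not tested.

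**Figure D4:**
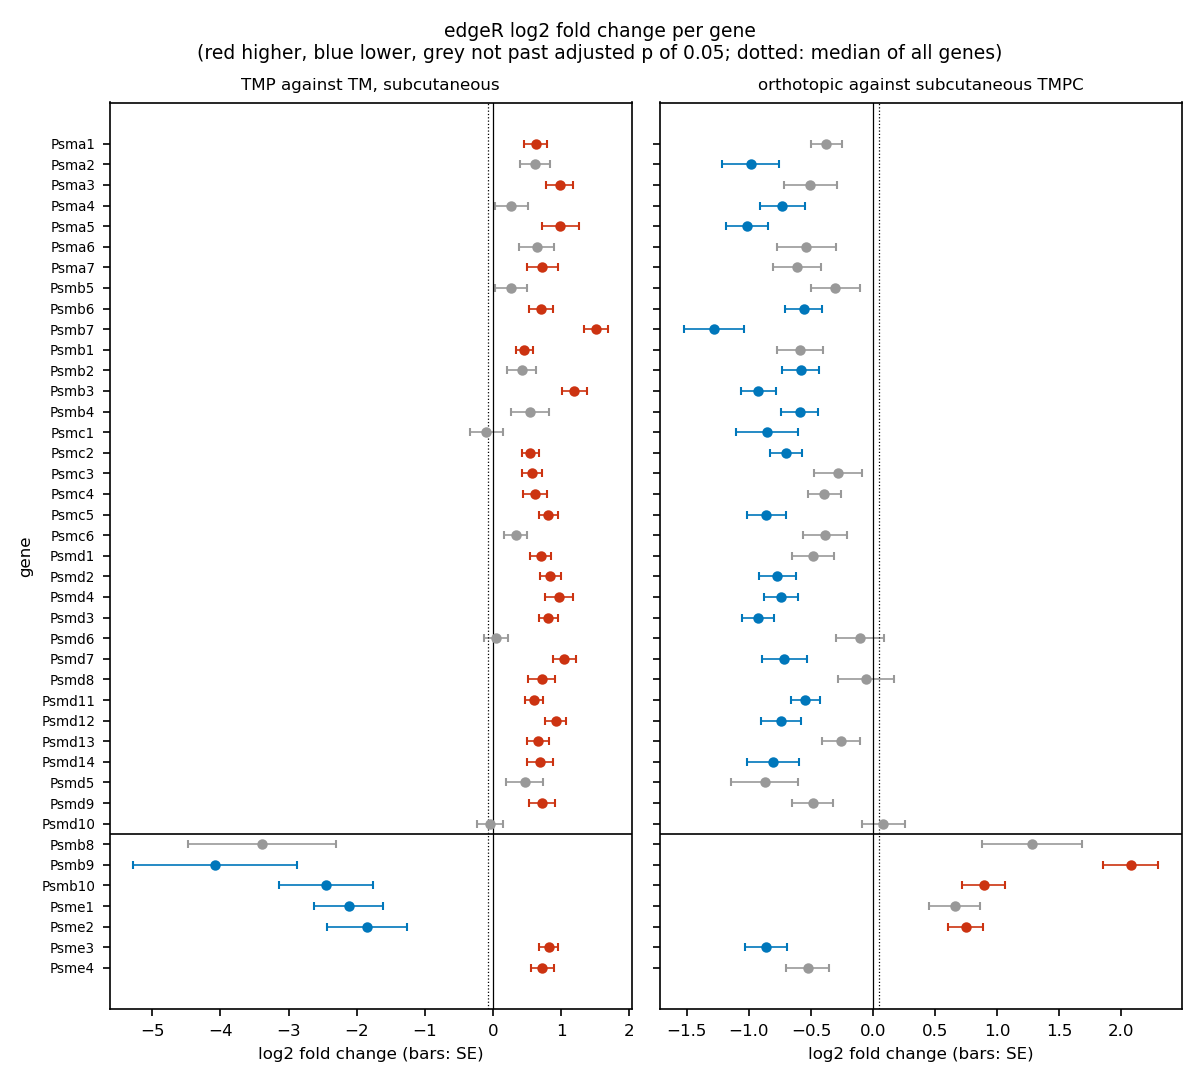
Log2 fold change with its SE for each tested member and, under the line, for the inducible subunits and the activators, in TMP against TM (left) and orthotopic against subcutaneous TMPC (right). Except for Psmc1 (left panel) and Psmd10 (both panels), members sit above 0 on the left and below 0 on the right, with Psmb7 farthest out in each, and Psmb8, Psmb9, Psmb10, Psme1 and Psme2 sit on the opposite side.

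The groups set against each other in the first and in the last of these comparisons have no library in common. The subcutaneous TMPC libraries did enter both fits, and so shared in the filter and the estimate of the spread behind both sets of calls. Of the 34 members, 32 had a positive log2 fold change in TMP against TM and a negative one in orthotopic against subcutaneous TMPC, a pattern shown by 37.2% of the 14811 genes tested in both. Of the members called, 13 rose in the first and fell in the second, which is 56.5% of the 23 that rose and 72.2% of the 18 that fell. Among all genes the share of those called higher in TMP that were called lower in orthotopic tumours was 61.5%, and of those called lower in orthotopic tumours 64.1% were called higher in TMP, so the members' shares were near these backgrounds. Psma1, Psma3, Psma7, Psmb1, Psmc3, Psmc4, Psmd1, Psmd8, Psmd9 and Psmd13 were called only in the first, and Psma2, Psma4, Psmb2, Psmb4 and Psmc1 only in the second. Whether their changes differ was not tested. Neither comparison called Psma6, Psmb5, Psmc6, Psmd5, Psmd6 or Psmd10. Across the 34 genes the 2 sets of log2 fold changes had a Pearson r of -0.55 and a Spearman rho of -0.43, given as a description, since the genes share their libraries.

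Levels per length differed widely among the genes. In TM tumours the 34 genes spanned 7.64 (Psmd5) to 209 (Psma7) CPM per kilobase of the principal transcript, a 27.4-fold range around a median of 72.4. In TMP, subcutaneous TMPC and orthotopic TMPC the range was 32.9-fold, 26.9-fold and 32.3-fold, with Psmd5 and Psma7 at the ends each time. The 3 chaperone genes held the last 3 ranks in every group, Psmd11 the rank above them and Psmb5 rank 30. Among the alpha ring genes Psma2 was lowest per length (44.9 in TM), among the ATPase genes Psmc6 (50.1), and in the lid Psmd11 (27.7). The length used decided who stood at the ends: per kilobase of all annotated exons together, Psma6 was highest in every group and Psmd9 lowest in 3 of the 4. In TM tumours Psmb3 (138 ± 23.7), Psma6 (134 ± 16.8), Psmb4 (130.0 ± 39.3) and Psmb6 (129.5 ± 18.9) followed Psma7 and did not differ from each other beyond their SD.

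Of the 3 inducible catalytic subunits, which lie outside the name rule, 2 were lower in TMP than TM and 2 were higher in orthotopic than subcutaneous TMPC, with 0 called the other way. Psmb9, which replaces Psmb6, stood at 22.1, 403 and 25.4 CPM in TM, 3.74, 14.4 and 10.6 in TMP, 10.6, 8.01 and 7.58 in subcutaneous TMPC and 40.1, 31.5 and 34.9 in orthotopic TMPC. TM replicate 2 was far above the other libraries, yet the other TM libraries too lay above all TMP libraries. Psmb9 was lower in TMP by a log2 fold change of -4.07 ± 1.20 (adjusted p = 0.0387) and higher in orthotopic tumours by 2.08 ± 0.22 (adjusted p = 0.00805). Without TM replicate 2 the first value was -1.30 ± 0.48 and no longer passed (adjusted p = 0.069).

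Psmb10, which replaces Psmb7, stood at 45.1, 278 and 54 CPM in TM and at 19.6, 27 and 26.9 in TMP. It was lower in TMP by -2.45 ± 0.69 (adjusted p = 0.0334), and by -1.01 ± 0.21 (adjusted p = 0.01) without TM replicate 2. In orthotopic tumours it was higher by 0.89 ± 0.17 (adjusted p = 0.0167). Psmb8, which replaces Psmb5, stood at 52.1, 596 and 59.3 CPM in TM and at 9.03, 38.6 and 24.9 in TMP, and its log2 fold changes of -3.39 ± 1.09 (adjusted p = 0.0501) and, by site, 1.28 ± 0.40 (adjusted p = 0.0568) did not pass. Without TM replicate 2 the first of these was -1.19 ± 0.59 (adjusted p = 0.155).

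Set against its constitutive partner per length, Psmb9 over Psmb6 was 0.152, 2.15 and 0.132 in the TM libraries, 0.0115, 0.0582 and 0.0335 in TMP, 0.0304, 0.0241 and 0.019 in subcutaneous TMPC and 0.158, 0.125 and 0.171 in orthotopic TMPC. The ratio was thus lower in all 6 TMP and subcutaneous TMPC libraries than in any TM or orthotopic library. Psmb10 over Psmb7 was 0.379, 1.73 and 0.365 in TM, and 0.043 to 0.0728 across the TMP and subcutaneous TMPC libraries. In orthotopic TMPC it was 0.416, 0.185 and 0.233. Psmb8 over Psmb5 stood at 0.872, 8.85 and 0.722 in TM and at 0.995, 1.09 and 0.876 in orthotopic TMPC, against 0.0894 to 0.603 in the other 6 libraries. The interferon response sums given above were likewise lower in all 6 TMP and subcutaneous TMPC libraries than in any TM or orthotopic library. The leukocyte sums did not separate the libraries in this way. They were 247 CPM in TMP replicate 2, against 228 and 224 in orthotopic replicates 1 and 2. The part of these genes in the ratios was not tested.

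**Figure D5:**
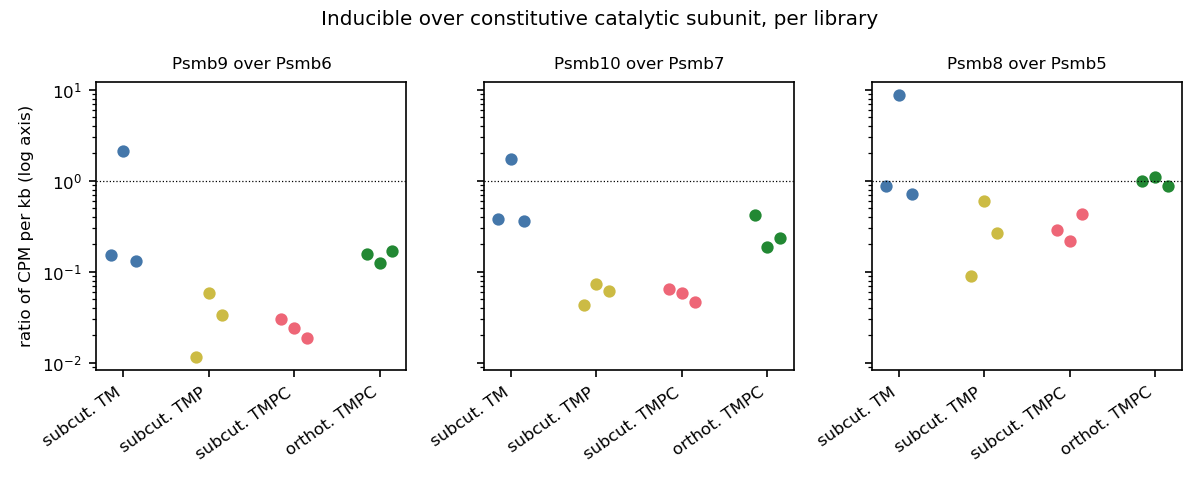
Ratio of CPM per kilobase of each inducible catalytic subunit to the constitutive one it replaces, per library, on a log axis with 1 as the dotted line. TM replicate 2 is the only library above 1 for Psmb9 over Psmb6 (2.15) and for Psmb10 over Psmb7 (1.73).

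The activators split in the same way as the catalytic subunits. Psme1 and Psme2 encode PA28 alpha and beta, which interferon induces, and Psme3 and Psme4 encode the nuclear PA28 gamma and PA200. Psme1 stood at 114, 414 and 134 CPM in TM and at 46.8, 55.2 and 58.7 in TMP, and Psme2 at 76.5, 372 and 98.8 against 44.8, 49.3 and 66.7, with TM replicate 2 far above the rest. Psme1 and Psme2 were lower in TMP than TM by -2.12 ± 0.51 (adjusted p = 0.02) and -1.85 ± 0.58 (adjusted p = 0.0474), while Psme3 and Psme4 were higher by 0.82 ± 0.14 (adjusted p = 0.00744) and 0.72 ± 0.17 (adjusted p = 0.0187). Without TM replicate 2 the values of Psme1 and Psme2 were -1.20 ± 0.21 (adjusted p = 0.00537) and -0.70 ± 0.21 (adjusted p = 0.0373). Psme3 stood at 142, 127 and 136 CPM in TM, 264, 242 and 229 in TMP, 229, 292 and 290.2 in subcutaneous TMPC and 134, 141 and 156 in orthotopic TMPC. By site Psme2 was higher in orthotopic tumours by 0.75 ± 0.14 (adjusted p = 0.0156) and Psme3 lower, by -0.86 ± 0.17 (adjusted p = 0.0169), and Psme1 and Psme4 did not pass.

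Other genes of the pathway followed the constitutive subunits in part. Of 5 chaperones that assemble the 20S core, 2 were higher in TMP than TM (Psmg2 by 0.67 ± 0.18 and Psmg3 by 0.83 ± 0.20), 3 in TMPC than TM, and 3 were lower in orthotopic TMPC, with 0 in the opposite direction. Outside the name rule, 6 genes for 19S subunits and associated proteins were measured. Of these, 3 were higher in TMP, 4 in TMPC against TM, and 3 were lower in orthotopic tumours. Uchl5, a deubiquitinase of the 19S base, changed most among them, by 1.14 ± 0.22 (adjusted p = 0.00929) in TMP and -1.08 ± 0.25 (adjusted p = 0.0245) by site. The ubiquitin receptor Adrm1, which holds Uchl5 on the particle, and the deubiquitinase Usp14 were both higher in TMP, each by 0.71 (SE 0.17 and 0.16).

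Upstream of the particle, 3 of 8 genes for ubiquitin shuttles and the p97 segregase were higher in TMP, 6 in TMPC against TM, and 4 were lower in orthotopic tumours. The shuttle Rad23b was higher in TMP by 1.08 ± 0.16 (adjusted p = 0.0046) and Ubqln4 by 0.97 ± 0.22 (adjusted p = 0.0175). Ubiquitin and E1 genes gave 0 calls of 6 in TMP against TM and 1 in each direction in TMPC against TM, where Uba1, the main E1 enzyme, was higher by 0.69 ± 0.19 (adjusted p = 0.0266) and Ubb lower by -0.75 ± 0.23 (adjusted p = 0.0379). By site 3 of the 6 were lower, with Uba1 at -0.75 ± 0.16 (adjusted p = 0.022).

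Among the regulators, the transcripts of both Nrf factors did not pass the test. Nfe2l1, which encodes Nrf1, stood at 245, 375 and 249 CPM in TM and at 246, 217 and 218 in TMP, and Nfe2l2, which encodes Nrf2, at 122, 154 and 146 against 91.8, 109 and 107. Their log2 fold changes of -0.40 ± 0.23 and -0.50 ± 0.28 did not pass (adjusted p = 0.214 and 0.201), nor did the values of 0.23 ± 0.16 and 0.97 ± 0.32 by site (adjusted p = 0.307 and 0.064). Nrf1 is controlled mainly after translation, so its transcript is a limited measure of its activity.

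The genes for the enzymes that process Nrf1 moved apart from each other. Ngly1, the glycanase that removes its sugars, stood at 53.1, 49.2 and 53.4 CPM in TM, 11.5, 12 and 14.6 in TMP, 10.9, 14.4 and 17.9 in subcutaneous TMPC and 37.2, 30.4 and 26.8 in orthotopic TMPC. Every TM and orthotopic library lay above every TMP and subcutaneous TMPC library. The log2 fold changes were -2.07 ± 0.22 (adjusted p = 0.00178) in TMP against TM and 1.17 ± 0.26 (adjusted p = 0.0225) by site. Ddi2, the protease that cleaves Nrf1, went the other way in TMP, from 38.6, 41.3 and 22.1 CPM to 85.2, 84.5 and 72.3, by 1.20 ± 0.32 (adjusted p = 0.0293). By site its value of -0.35 ± 0.27 did not pass. Of the 12 regulators listed, 3 were higher (Ddi2, Mafg, Nfyc) and 1 lower (Ngly1) in TMP against TM.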

How the data were processed

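Polyadenylated RNA of 12 tumour libraries (3 in each of 4 groups) was sequenced as 150 bp paired reads, per the labels' protocols. STAR 2.6.0, DESeq2 and the mm10 build are named in the submitters' processing notes. No source used here names the read counter, its annotation or its strand setting. The 2 single-cell samples were not analysed here. Per the file headers, the authors deposited raw counts per gene, and beside them counts divided by size factors (a normalized signal), which were used only to align rows. In the subcutaneous table the symbols were out of step with the values in 12131 rows. Symbols were therefore taken by row position from the orthotopic table. After this 24419 rows, including all 36 members, matched the normalized values within 0.01 reads, against 14200 as deposited.

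Differences in the counts were tested in R 4.3.3 with edgeR 4.0.16 (TMM factors, filterByExpr, quasi-likelihood fit, Benjamini-Hochberg adjustment over all genes tested). The 9 subcutaneous libraries were fitted together (6 residual degrees of freedom, 15277 genes) and the 6 TMPC libraries apart from them (4 residual degrees of freedom, 15123 genes). The libraries held 16584781 to 21107310 counts, so 3 counts are 0.142 to 0.181 CPM. Lengths are those of the longest principal transcript in GENCODE M21, and copies are transcripts with at least 95% identity over at least 300 bases (blastn 2.17.0). Within groups, no pair of libraries was a repeat deposit, the lowest chi-square per degree of freedom between replicates being 29.8. Pairs across groups were not compared in this way.

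The members and the gene lists were chosen with earlier results of these data known. The genes named are Psmb5, Psmb6, Psmb7 and Psmd14, in each comparison the 6 largest rises or falls past the threshold (the 3 largest and 3 smallest values where fewer than 3 passed), the highest and lowest level per length in each role, the inducible subunits, Psme1, Psme2, Nfe2l1, Nfe2l2, and in each list of companion genes the 2 with the smallest adjusted p past the threshold. A gene named outside this rule was chosen after its values were seen. Alternatives were DESeq2 1.42.0, its size factors in edgeR, no filter on low counts, a replicate block, other sets of libraries in the fit, and each replicate left out.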

Additional observations from a re-analysis of the deposited data

How the results depend on the processing

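The calls followed here were those on Psmb5, Psmb6, Psmb7, Psmd14, the 6 largest rises or falls per comparison and the named companion genes. Members named only for their level per length were not followed. No followed call, and no median of the members, reversed its direction under the alternatives run. The median of all genes, near 0, did: without TM replicate 2 it was 0.01 in TMP against TM and 0.02 in TMPC against TM, against -0.07 in each, and in TMPC against TMP it was -0.01 with a replicate block and -0.02 without TMPC replicate 1, against 0.01. The count of members higher in TMP than TM, 23, was 22 with DESeq2's size factors in edgeR, 24 with DESeq2, 25 with all 12 libraries in the fit, 15 with only the 6 libraries compared, and 10 to 26 with a replicate left out. The count of genes past the threshold there, 4239, was 1550 to 4885 with a replicate left out. Between subcutaneous TMPC and TMP the count of genes was 0 with edgeR and 16 with DESeq2. For subcutaneous TMPC against TM the count of members was 22 to 29 with a replicate left out, and the count of genes, 5469, was 3536 with only the 6 libraries compared and 3414 to 6390 with a replicate left out. Between sites the 18 members lower in orthotopic tumours were 25 with DESeq2, 24 with all 12 libraries and 0 to 19 with a replicate left out; the 4204 genes past the threshold were 6371 with DESeq2 and 387 to 4789 with a replicate left out. Where libraries were removed, fewer samples entered the test, yet some counts rose. In TMP against TM the count of genes was 4885 without TM replicate 2, against 4239. The cause of these changes was not tested, nor was that of the changes with DESeq2. With DESeq2 the median log2 fold change of all genes was -0.15 in TMP against TM and 0.15 by site. The labels do not say whether replicate numbers pair the samples. Correlations of same-numbered deviations, -0.22 to 0.28 over the comparisons, are too few and too weak to decide it. In TMP against TM the same-numbered values were 0.24, 0.28 and 0.08, and the others -0.29 to 0.22. A replicate block gave 17 members higher in TMP and 23 in TMPC against TM, and 8 members and 1777 genes between sites. Of the 24 followed calls on members, 12 held in every setting, 5 of 8 in TMP against TM, 7 of 8 in TMPC against TM and 0 of 8 by site.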
